A study of Mus musculus with 4 samples.

Results

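Notch signalling genes were followed in RNA pulled down with anti-Cpeb4, or with control IgG, from the ventricular-subventricular zone (V-SVZ) of the mouse brain. The set holds 10 genes of the 53379 in the deposited table, chosen by gene symbol: the receptors Notch1, Notch2 and Notch3, the ligands Dll1, Dll3 and Jag1, the DNA-binding effector Rbpj, and the target repressors Hes1, Hes5 and Hey1. The tissue came from mice of the CD1 strain, wild type, taken on postnatal day 7 or 8, and no allele, transgene or drug treatment distinguished the groups. The antibody did: the Cpeb4 group and the IgG group had 2 libraries each, 1 of each antibody in each of 2 experiments. The labels do not say whether the experiments used separate or pooled animals, and all p-values therefore reflect only library-to-library spread, which may be technical.

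Notch receptors are cell surface proteins that are activated when a ligand of the Delta or Jagged family on a neighbouring cell binds them. The receptor is then cut by an ADAM protease and by gamma-secretase, and its intracellular domain enters the nucleus, joins Rbpj and switches on repressors of the Hes and Hey families. In the V-SVZ, the niche of neural stem cells along the lateral ventricles, the pathway is known for holding stem cells undifferentiated. Cpeb4 is an RNA-binding protein of the cytoplasmic polyadenylation element-binding family, and the comparison of the antibodies asks which transcripts were recovered with it beyond the background of IgG.

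Depth on genes came to 35037171 and 24483742 reads in Cpeb4 libraries and to 24094241 and 22486721 reads in IgG libraries. Levels are given as FPKM, fragments per kilobase of gene with the authors' correction for depth, and a fold change is the log2 ratio of FPKM + 1, Cpeb4 over IgG, which understates changes of genes with low values. A gene was called at a Benjamini-Hochberg adjusted p under 0.05 in limma over the 15745 genes that reached 1 FPKM in 2 libraries. The Cpeb4 transcript had 26.7 and 38.3 FPKM in the Cpeb4 libraries and 9.04 and 9.66 FPKM in the IgG libraries. Markers of stem cells and radial glia summed to 938 and 987 FPKM in Cpeb4 and 603 and 579 FPKM in IgG libraries, where 5 of 7 were called higher and 1, Nes, lower. Slc1a3, at 468 and 500 FPKM, and Fabp7, at 263 and 285 FPKM, held most of that sum in Cpeb4 libraries. Markers of transit amplifying cells and neuroblasts summed to 216 and 245 FPKM in Cpeb4 and 104 and 104 FPKM in IgG libraries, with 5 of 5 called higher. Oligodendrocyte lineage markers summed to 330 and 331 FPKM in Cpeb4 and 224 and 213 FPKM in IgG libraries, with 4 of 4 called higher. Of all tested genes, limma called 38.8% higher and 11.6% lower. Under all 4 library scalings described here, 3 stem cell, 2 neuroblast and 0 oligodendrocyte markers stayed higher and 1 stem cell marker lower, beside 17.5% and 11.6% of all tested genes, and the part of these cells in the results was not tested. Ttr of the choroid plexus was not called, at 67.6 and 61.7 FPKM in Cpeb4 and 56.9 and 52.4 FPKM in IgG libraries, and Kl was not tested. Ependymal markers summed to 49.0 and 41.5 FPKM in Cpeb4 and 57.5 and 59.0 FPKM in IgG libraries, with 2 of 4 lower. Microglial ones summed to 130 and 132 FPKM in Cpeb4 and 112 and 106 FPKM in IgG libraries, with P2ry12 higher (log2 1.23) and Cx3cr1 lower (log2 -1.02). Endothelial ones stood at 38.1 and 30.9 FPKM in Cpeb4 and 41.8 and 40.2 FPKM in IgG libraries with 2 of 6 lower, and mural ones at 56.2 and 63.4 FPKM in Cpeb4 and 40.3 and 39.4 FPKM in IgG libraries with 1 of 5 higher, although the endothelial Cdh5 and the mural Myh11 stayed under 1 FPKM in all 4 libraries. Under all 4 scalings 2 ependymal, 2 endothelial and 1 microglial marker stayed lower, and 1 microglial and 1 mural marker stayed higher, beside the same shares of all tested genes.

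Of the 10 Notch genes, Rbpj and Hey1 were higher in Cpeb4 immunoprecipitates, and the receptors, the ligands, Hes1 and Hes5 were not called, with the Hey1 call lost under 2 of 4 library scalings. All 10 genes passed the filter on low values. The 2 higher calls stand against 38.8% of all tested genes called higher, and the 2 calls in either direction against 50.4%. There were 0 lower calls by limma, also at an unadjusted p under 0.05, by limma-voom on reads and in the authors' deposited table, against 11.6% of all tested genes called lower by limma. The median log2 fold change of the 10 genes was 0.04, beside 0.19 over all tested genes. In 4 of the 10 genes both Cpeb4 libraries lay above both IgG libraries, and in 0 both lay below, while over all tested genes these shares were 53.2% and 22.7%.

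**Figure D1:**
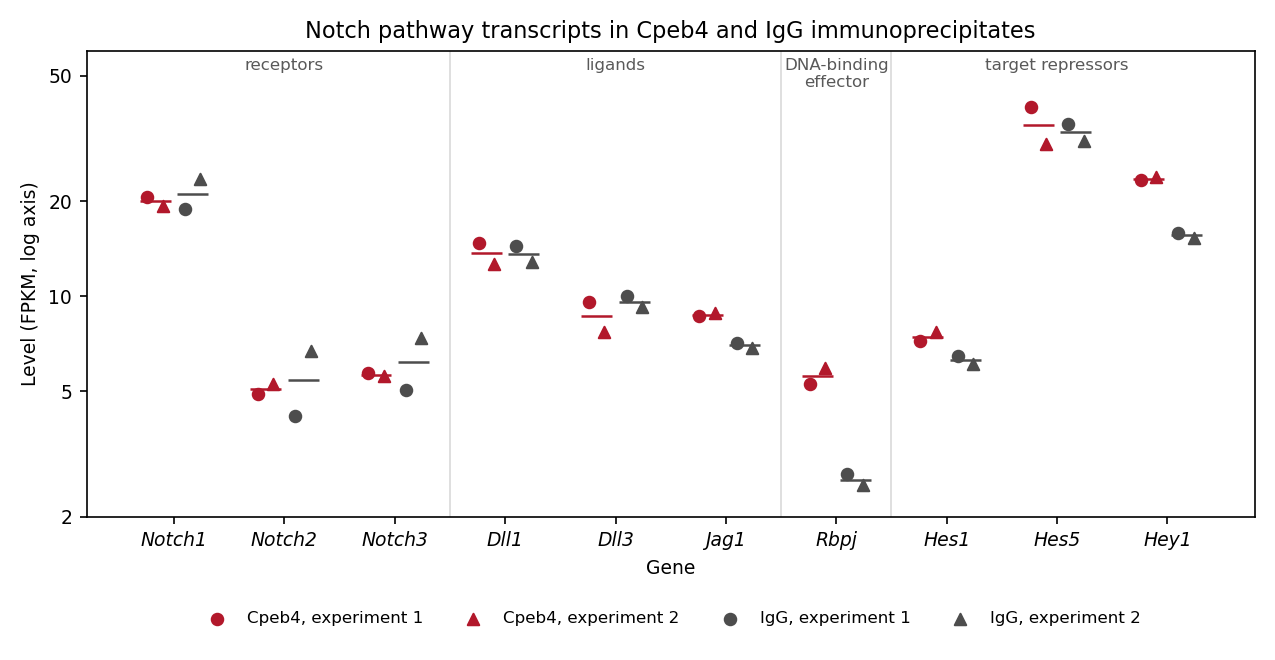
Level of each Notch gene in FPKM on a log axis, by antibody and experiment; points are libraries and short lines the mean of 2. The Cpeb4 points lie above the IgG points for Jag1, Rbpj, Hes1 and Hey1 and overlap with them for the other 6 genes.

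Fold changes depended on how the libraries were scaled, so each was computed in 4 ways: with the authors' scaling, with the median of tested genes set to 0, with the trimmed mean of M-values and with read totals. The median log2 fold change of all tested genes was 0.19 with the authors' scaling, -0.04 with trimmed means and -0.24 with read totals. With read totals 17.5% of tested genes were called higher and 42.4% lower, and of the Notch genes 1 was called higher and 6 lower. Only Rbpj kept its call under all 4 scalings, as 17.5% of tested genes did in the higher direction.

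**Figure D2:**
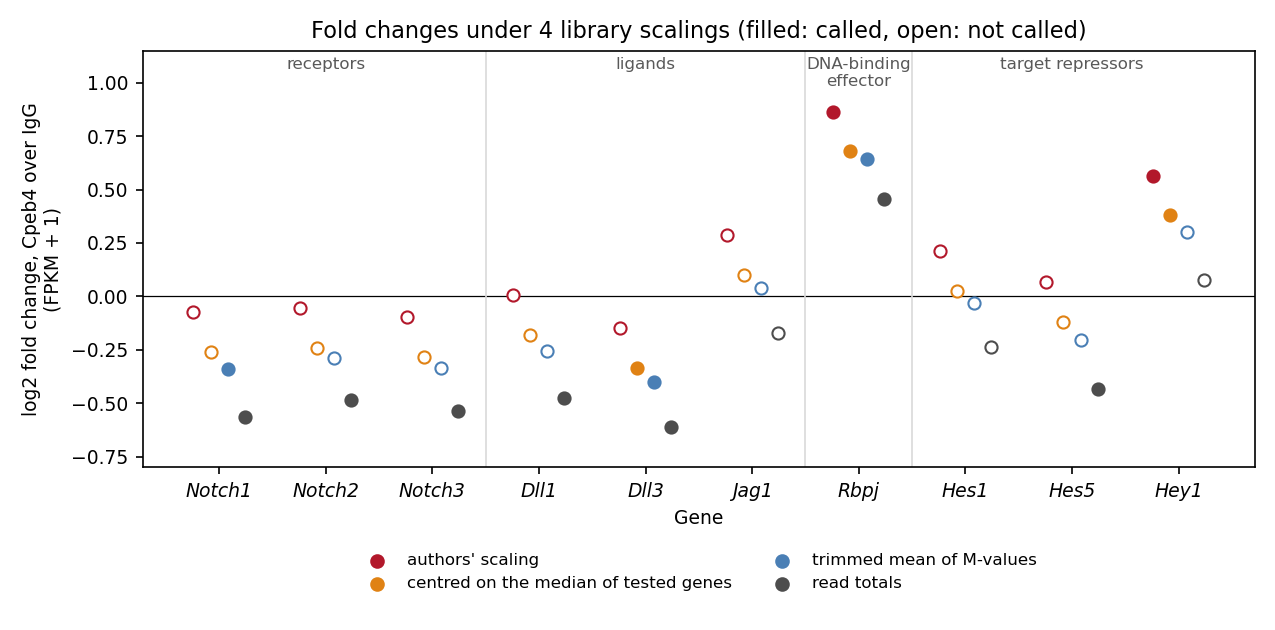
Log2 fold change of each Notch gene, Cpeb4 over IgG, under 4 library scalings, with filled points for calls by limma and open points for genes not called. Rbpj lies between 0.46 and 0.87 under every scaling, the 3 receptors lie below 0 throughout and are called lower together with read totals, Notch1 also with trimmed means, and Dll1, Jag1, Hes1 and Hes5 change sign between scalings.

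The receptors were the members that differed most between the IgG libraries. Notch1, the main receptor of neural stem cells (chromosome 2: 26457902 to 26503822, GRCm38), had 20.6 and 19.3 FPKM in the Cpeb4 libraries of experiments 1 and 2 and 18.9 and 23.5 FPKM in the IgG libraries. Notch2 (chromosome 3: 98013538 to 98150367), also a receptor of neural progenitors, had 4.90 and 5.25 FPKM in Cpeb4 and 4.18 and 6.68 FPKM in IgG libraries. Notch3 (chromosome 17: 32120820 to 32166896), best known from mural cells of blood vessels, had 5.70 and 5.57 FPKM in Cpeb4 and 5.04 and 7.35 FPKM in IgG libraries. For each receptor the Cpeb4 libraries lay close together, between a low IgG library of experiment 1 and a high IgG library of experiment 2, so that the groups overlapped.

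The log2 fold changes of the receptors were -0.07 for Notch1 (SE 0.13, 95% interval -0.35 to 0.20), -0.06 for Notch2 (SE 0.14, -0.36 to 0.25) and -0.10 for Notch3 (SE 0.14, -0.40 to 0.21). Their adjusted p by limma was 0.672, 0.775 and 0.598, and 0 of 3 passed an unadjusted p under 0.05. Within experiment 1 the differences were 0.12, 0.19 and 0.15 for Notch1, Notch2 and Notch3, and within experiment 2 they were -0.27, -0.30 and -0.35. All 3 receptors therefore had opposite signs in the 2 experiments. Without IgG replicate 2 the fold changes turned positive, at 0.08, 0.23 and 0.14, and with read totals they were called lower, at -0.56, -0.49 and -0.54 (limma adjusted p = 0.000235, 0.00208 and 0.000582). Notch1 was called lower with trimmed means too, at -0.34 (limma adjusted p = 0.0415).

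The level in IgG replicate 2 was 1.24 times that in IgG replicate 1 for Notch1, 1.60 times for Notch2 and 1.46 times for Notch3, beside a median of 0.985 over tested genes. The share of tested genes with a smaller ratio was 93.5%, 98.6% and 97.9%. Notch2, the receptor with the most spread, had 1274 and 1904 reads in the IgG libraries. The same ratio between the Cpeb4 libraries was 0.938, 1.07 and 0.977. The source of the spread between the IgG libraries was not tested. In bulk precipitates of a mixed tissue, fewer cells of a type and less RNA per cell cannot be told apart.

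Ratios of members within a library do not depend on library scaling. Notch2 over Notch3 was 0.859 and 0.944 in the Cpeb4 libraries and 0.830 and 0.909 in the IgG libraries, so that these receptors stood in overlapping proportions with either antibody. Notch1 over Notch2 was 4.21 and 3.68 in Cpeb4 and 4.52 and 3.51 in IgG libraries, and these ranges overlapped.

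Among the ligands, the Delta genes were not called and Jag1 lay near the threshold. Dll1, an activating ligand of progenitors and newborn neurons (chromosome 17: 15367354 to 15376932), had 14.7 and 12.7 FPKM in Cpeb4 and 14.4 and 12.9 FPKM in IgG libraries. Dll3, a divergent Delta protein known to inhibit Notch signalling within the cell that makes it (chromosome 7: 28293555 to 28301785), had 9.58 and 7.68 FPKM in Cpeb4 and 10.01 and 9.22 FPKM in IgG libraries. In both genes the library of experiment 1 was the higher of each antibody, and the groups overlapped. The log2 fold change was 0.01 for Dll1 (SE 0.12, 95% interval -0.25 to 0.27, limma adjusted p = 0.969) and -0.15 for Dll3 (SE 0.13, -0.41 to 0.12, limma adjusted p = 0.353). Dll3 was called lower under the other 3 scalings, at -0.33, -0.40 and -0.61, and Dll1 with read totals alone, at -0.47. Without Cpeb4 replicate 1 the log2 fold change was -0.29 for Dll3 and -0.09 for Dll1.

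Jag1 (chromosome 2: 137081451 to 137116520), a Jagged ligand expressed by cells of the stem cell niche, had 8.64 and 8.85 FPKM in Cpeb4 libraries and 7.12 and 6.86 FPKM in IgG libraries. The Cpeb4 libraries were both higher, in experiment 1 by 0.25 and in experiment 2 by 0.32 on the log2 scale. The fold change of 0.29 (SE 0.13, 95% interval 0.02 to 0.55) did not pass after adjustment (limma adjusted p = 0.0691), passed without the experiment block (limma adjusted p = 0.0475) and on reads with limma-voom (log2 0.32, adjusted p = 0.0334), and turned to -0.17 with read totals. It also passed without Cpeb4 replicate 1 (log2 0.30, limma adjusted p = 0.03004) and without Cpeb4 replicate 2 (log2 0.27, limma adjusted p = 0.0489), and did not pass without IgG replicate 1 (log2 0.31, limma adjusted p = 0.228) or without IgG replicate 2 (log2 0.26, limma adjusted p = 0.308). Within the libraries, Jag1 over Dll1 was 0.586 and 0.698 in Cpeb4 and 0.494 and 0.534 in IgG, and Jag1 over Dll3 was 0.902 and 1.153 in Cpeb4 and 0.711 and 0.744 in IgG. Relative to either Delta ligand, Jag1 was higher in both Cpeb4 libraries than in both IgG libraries, whatever the scaling. Dll1 over Dll3, neither called with the authors' scaling, lay apart too, at 1.54 and 1.65 in Cpeb4 and 1.44 and 1.39 in IgG libraries. How often ratios of other gene pairs lie apart in this way was not computed.

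Rbpj, the DNA-binding protein through which all Notch receptors act in the nucleus (ENSMUSG00000039191.12, chromosome 5: 53555779 to 53657445), had the highest fold change of the set. It had 5.27 and 5.94 FPKM in Cpeb4 libraries and 2.73 and 2.51 FPKM in IgG libraries, from 887 and 647 reads in Cpeb4 and 435 and 374 reads in IgG libraries. The groups were well apart, with means of 5.61 ± 0.477 FPKM in Cpeb4 and 2.62 ± 0.154 FPKM in IgG (SD, n = 2 each). Rbpj was 1.82-fold higher on the FPKM + 1 scale, a log2 fold change of 0.87 (SE 0.14, 95% interval 0.57 to 1.16, limma adjusted p = 7.94e-05), with 0.75 in experiment 1 and 0.98 in experiment 2. This value exceeded that of 85.6% of tested genes. It was called higher under the other scalings as well, at 0.68, 0.64 and 0.46, and remained called when any 1 library was left out, at 0.79 to 0.94. In the authors' deposited table, where 21.7% of genes with an adjusted p were called higher and 4.93% lower, Rbpj had a log2 fold change of 1.08 (SE 0.21, adjusted p = 1.86e-06).

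Against Notch1 in the same library, Rbpj stood at a ratio of 0.256 and 0.307 in Cpeb4 and 0.145 and 0.107 in IgG libraries. Against Hes5 the ratio was 0.132 and 0.196 in Cpeb4 and 0.0777 and 0.0810 in IgG libraries. Rbpj was the least abundant member in IgG libraries and overlapped with Notch3 in Cpeb4 libraries. The mouse genome carries pseudogene copies of Rbpj. How the counting treated reads that fit near-identical copies is not stated, which leaves some uncertainty in these values. The copy Rbpsuh-rs3, had 89 and 71 reads in Cpeb4 and 45 and 55 reads in IgG libraries, or 10.03% and 10.97% of the Rbpj reads in Cpeb4 and 10.3% and 14.7% in IgG libraries. With the authors' scaling it was called higher too, by 0.53 on the log2 scale (SE 0.16, limma adjusted p = 0.010).

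The 3 target repressors, basic helix-loop-helix proteins that silence proneural genes, held 1 call, that of Hey1. Hey1 (ENSMUSG00000040289.8, chromosome 3: 8663359 to 8667038) had 23.3 and 23.8 FPKM in Cpeb4 libraries and 15.9 and 15.3 FPKM in IgG libraries, with groups that did not overlap and means of 23.6 ± 0.382 FPKM against 15.6 ± 0.364 FPKM (SD, n = 2 each). It was 1.48-fold higher on the FPKM + 1 scale, a log2 fold change of 0.57 (SE 0.12, 95% interval 0.31 to 0.82, limma adjusted p = 0.00102), and in the authors' deposited table it had 0.59 (SE 0.17, adjusted p = 0.00367). The call was lost with trimmed means (log2 0.30, limma adjusted p = 0.0521), with read totals (log2 0.07, limma adjusted p = 0.662) and without IgG replicate 2 (log2 0.54, limma adjusted p = 0.0507).

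Hes1 (chromosome 16: 30065357 to 30067796), whose oscillating expression is known from neural progenitors, had 7.19 and 7.69 FPKM in Cpeb4 libraries and 6.48 and 6.08 FPKM in IgG libraries. The Cpeb4 libraries were the higher ones by a small margin, on 324 and 224 reads in Cpeb4 and 276 and 242 reads in IgG libraries, the lowest counts of the set. Its log2 fold change of 0.21 (SE 0.13, 95% interval -0.06 to 0.49, limma adjusted p = 0.181) was not called and was negative with trimmed means (-0.03) and read totals (-0.24). Hes5 (chromosome 4: 154960626 to 154962372), the most abundant member with either antibody, had 39.8 and 30.3 FPKM in Cpeb4 and 35.2 and 31.0 FPKM in IgG libraries. Its groups overlapped, and the log2 fold change was 0.07 (SE 0.12, 95% interval -0.20 to 0.33, limma adjusted p = 0.675), or -0.12, -0.20 and -0.43 under the other scalings, the last of which was called lower (limma adjusted p = 0.00565). The sign for Hes5 rested on single libraries, at -0.019 without IgG replicate 2, at -0.12 without Cpeb4 replicate 1 and at 0.26 without Cpeb4 replicate 2.

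Hey1 over Hes5 in the same library was 0.586 and 0.787 in Cpeb4 and 0.451 and 0.494 in IgG libraries. Hey1 over Hes1 was 3.24 and 3.10 in Cpeb4 and 2.45 and 2.52 in IgG libraries. Relative to either Hes gene, Hey1 was higher in both Cpeb4 libraries than in both IgG libraries, whatever the scaling, with no share over other gene pairs computed. Hes5 over Hes1 was 5.53 and 3.94 in Cpeb4 and 5.43 and 5.11 in IgG libraries, which overlapped.

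**Figure D3:**
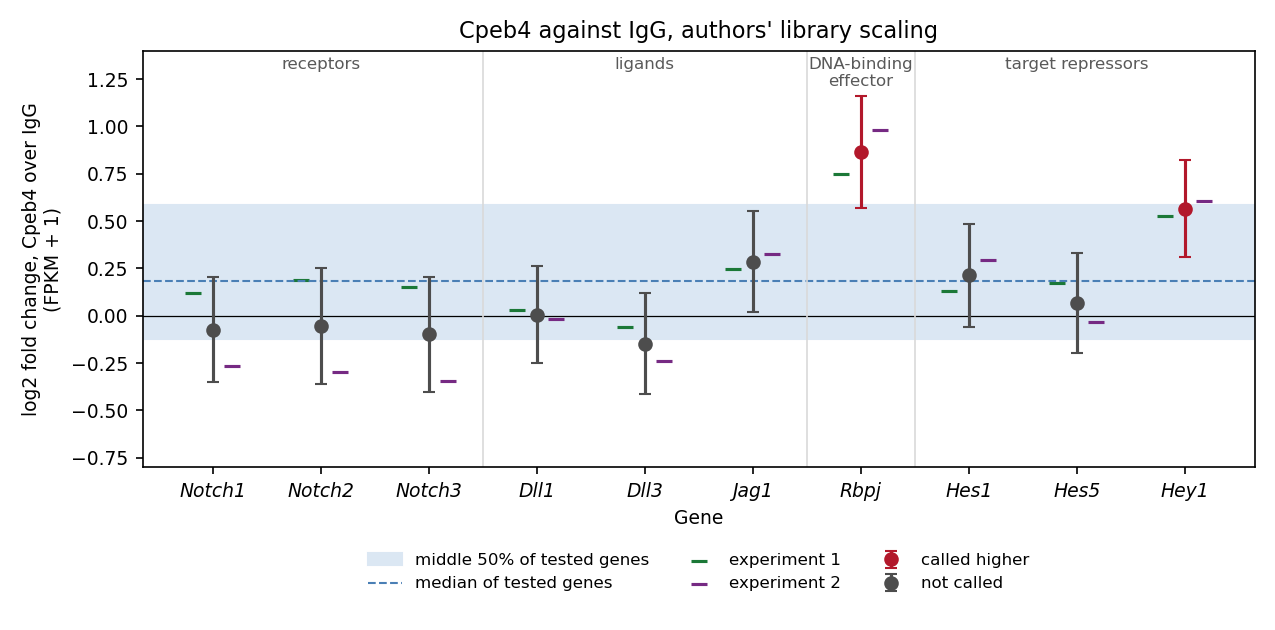
Log2 fold change of each Notch gene with the authors' scaling, Cpeb4 over IgG on FPKM + 1; points and bars are the limma estimate and its 95% interval, short dashes the 2 experiments, and the band the middle 50% of tested genes. Rbpj, at 0.87, lies above the band, Hey1 is called higher at 0.57 within it, and the 3 receptors show positive dashes in experiment 1 and negative ones in experiment 2.

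By level, the order in Cpeb4 libraries was Hes5, Hey1, Notch1, Dll1, Jag1, Dll3, Hes1, Notch3, Rbpj and Notch2, with means of 35.0 ± 6.71 FPKM at the top and 5.07 ± 0.253 FPKM at the bottom (SD, n = 2 each). The neighbours Jag1 and Dll3, Dll3 and Hes1, and Notch3 and Rbpj overlapped between libraries. In IgG libraries Notch1, at 21.2 ± 3.24 FPKM, stood above Hey1, and Rbpj was last (SD, n = 2 each). There Notch2 and Notch3 overlapped with each other and with Hes1, and Notch3 with Jag1. The genes whose 4 centred values lay nearest to those of Rbpj were Angel2, Epha4 and Ssbp2, at Euclidean distances of 0.0116, 0.0117 and 0.0158 on the log2 scale. For Dll3, the member with the lowest fold change, Rilpl2 and Sirt3 were among the nearest, at 0.0192 and 0.0208.

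Among other genes of the pathway, several that process or limit Notch differed between the antibodies, as did 50.4% of all tested genes. Of 55 listed genes 51 were tested, of which 19 were higher, 3 lower and 29 not called, beside 38.8% of all tested genes called higher and 11.6% called lower. Their median log2 fold change was 0.19, the same as over all tested genes. Under all 4 scalings 6 stayed higher and 3 lower, beside 17.5% and 11.6% of all tested genes. Dlk1, Hes2, Hes3 and Hes7 stayed under 1 FPKM in every library and were not tested.

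The proteases that cut Notch held the widest range. Of 9 tested, 4 were higher and 1 lower, beside 38.8% and 11.6% of all tested genes. Aph1b, a gamma-secretase subunit, had 22.7 and 28.0 FPKM in Cpeb4 libraries and 9.07 and 8.24 FPKM in IgG libraries, a log2 difference of 1.44 (SE 0.13, limma adjusted p = 3.24e-07). Its near-identical neighbour Aph1c was not called at 0.18, and how reads that fit both genes were counted is not stated. Psenen, another gamma-secretase subunit, went the other way, with 19.5 and 12.5 FPKM in Cpeb4 and 46.5 and 45.9 FPKM in IgG libraries, a log2 difference of -1.51 (SE 0.14, limma adjusted p = 4.09e-07). Psenen overlaps U2af1l4 in the annotation, and the cDNA kit does not mark strand. The length implied by reads and FPKM was 0.71 kb for Psenen and 5.10 kb for Aph1b, and a part of gene length in these values was not tested. Adam10, named here after its value was seen, is the sheddase that makes the first cut after ligand binding. It had 51.5 and 63.8 FPKM in Cpeb4 and 23.2 and 22.0 FPKM in IgG libraries (log2 1.31, SE 0.13, limma adjusted p = 7.01e-07). These 3 calls held under all 4 scalings.

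Among 9 genes of receptor turnover and inhibition, 5 were higher and 0 lower by limma, with 1 lower at an unadjusted p under 0.05 and 0 by limma-voom. Limma called 38.8% of all tested genes higher and 11.6% lower, and 17.5% stayed higher under all 4 scalings, as did 1 of the 9. The highest was Nrarp, a Notch target that feeds back to limit the pathway, at 16.8 and 13.1 FPKM in Cpeb4 and 4.71 and 4.30 FPKM in IgG libraries (log2 1.52, SE 0.13, limma adjusted p = 1.5e-07), a call that held under all 4 scalings. Nrarp had a larger fold change than any of the 10 members. In ligand ubiquitination and endocytosis, 2 of 6 were higher and 1 lower: the endocytic adaptor Epn2 had 54.4 and 53.6 FPKM in Cpeb4 libraries against 24.4 and 25.7 FPKM in IgG libraries (log2 1.08, SE 0.12, limma adjusted p = 2.47e-06), and the ubiquitin ligase Neurl1b had 15.0 and 14.7 FPKM in Cpeb4 and 18.3 and 20.1 FPKM in IgG libraries (log2 -0.35, SE 0.12, limma adjusted p = 0.0269). The Neurl1b call was lost without IgG replicate 1 and without IgG replicate 2 (limma adjusted p = 0.118 and 0.281), and with no filter (limma adjusted p = 0.114).

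Of 6 genes of receptor glycosylation and furin cleavage, 2 were higher and 1 lower, beside 38.8% and 11.6% of all tested genes. Pofut1, which adds the fucose that ligand binding needs, had 11.3 and 11.5 FPKM in Cpeb4 and 6.55 and 7.39 FPKM in IgG libraries (log2 0.64, SE 0.12, limma adjusted p = 0.00047), and was not called with read totals (limma adjusted p = 0.278). Lfng, the Fringe enzyme that extends that fucose, had 28.8 and 24.1 FPKM in Cpeb4 and 31.1 and 37.8 FPKM in IgG libraries (log2 -0.37, SE 0.14, limma adjusted p = 0.0361). The Lfng call held under all 4 scalings and was lost without Cpeb4 replicate 2 (limma adjusted p = 0.0906), without IgG replicate 1 (0.0818) and without IgG replicate 2 (0.428), without the experiment block (0.0575), with a pseudocount of 0.1 (0.0516) and with no filter (0.214).

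Shares over all tested genes were 38.8% called higher and 11.6% lower. Of 5 other receptors and ligands tested, 1 was higher and 0 lower by limma, with 1 lower at an unadjusted p under 0.05 and 2 by limma-voom. The higher one was Dner, a neuronal transmembrane protein related to Delta, at 60.1 and 65.2 FPKM in Cpeb4 and 36.7 and 33.9 FPKM in IgG libraries (log2 0.81, SE 0.13, limma adjusted p = 6.01e-05), a call lost with read totals (limma adjusted p = 0.0586). Of 13 coactivators and corepressors of Rbpj, 0 stayed higher under all 4 scalings, beside 17.5% of all tested genes. By limma with the authors' scaling 5 were higher and 0 lower, and 0 were lower at an unadjusted p under 0.05 or by limma-voom. The corepressor Ncor1 led them at 36.8 and 42.3 FPKM in Cpeb4 and 22.8 and 23.2 FPKM in IgG libraries (log2 0.75, SE 0.12, limma adjusted p = 9.4e-05), with its call lost with read totals (limma adjusted p = 0.115). Ncor1 overlaps Ttc19 in the annotation, and reads of the pair cannot be told apart where they overlap. Of the other Hes and Hey factors 3 were tested and 0 called by limma in either direction, also at an unadjusted p under 0.05 and by limma-voom.

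**Figure D4:**
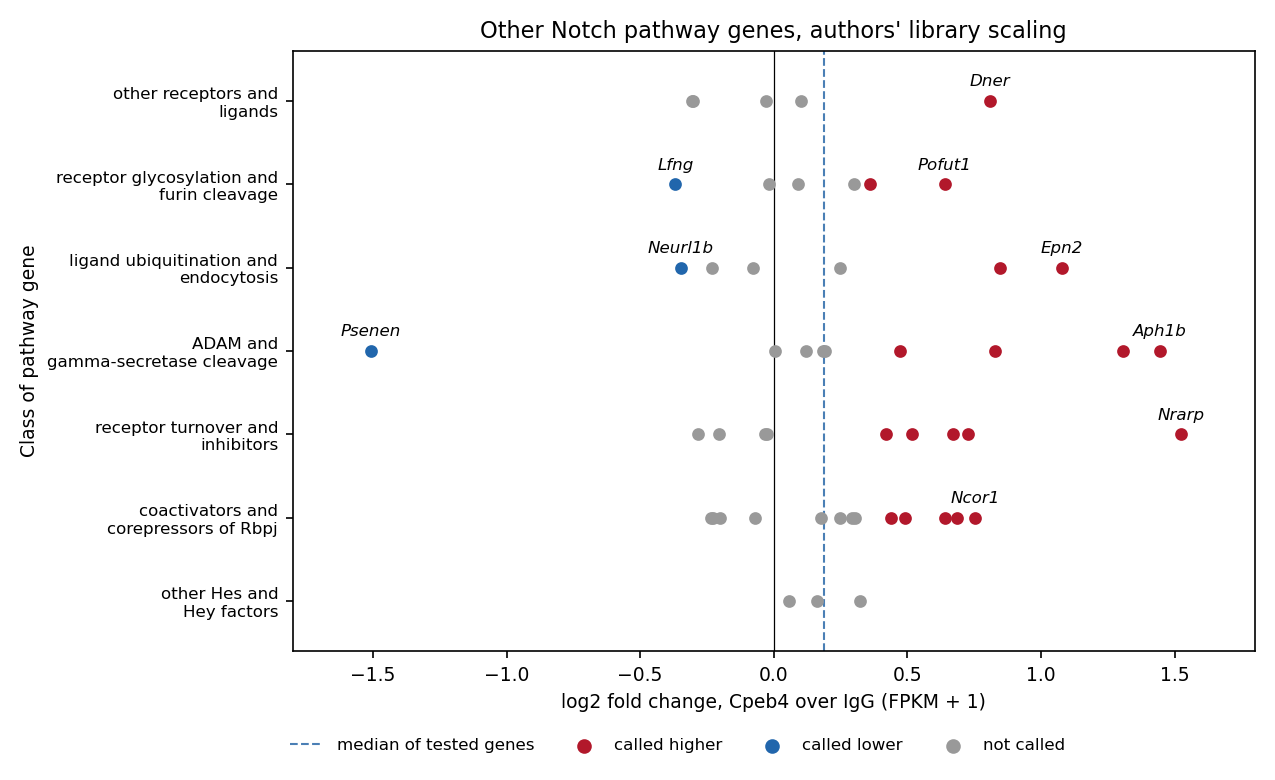
Log2 fold changes of 51 other Notch pathway genes by class with the authors' scaling, Cpeb4 over IgG on FPKM + 1; each point is a gene, coloured by its limma call, and the dashed line is the median of tested genes. The protease class spans the widest range, with Psenen at -1.51 and Aph1b at 1.44, and Nrarp has the largest value at 1.52.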

How the data were processed

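Per the file headers, the authors deposited FPKM for each of 4 libraries, numbered by antibody and experiment, and their own comparison of the antibodies. The authors' comparison gives, per gene, the mean level as a signal (reads over size factors), the log2 fold change, its SE, the test score, the p-value and the adjusted p-value. Without settings, the submitters' processing notes list STAR 2.6.0c and HTSeq 0.6.1p2, the build mm10, FastQC 0.11.5 with Trim Galore 0.5.0, and DESeq2 1.26.0. Per the labels' protocols, the MAGNA RIP kit gave the RNA, SMART-Seq v4 for low input the cDNA and Nextera XT the libraries. SMART-Seq v4 cDNA does not mark strand. Reads were amplified without molecular identifiers, so they are not independent molecules.

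Reads were recovered from the FPKM steps joined to the authors' mean level, and 100% of values came out whole within 0.01 read. Replicates differed beyond sampling noise, with a chi-square per degree of freedom of 23.0 for Cpeb4 and 4.97 for IgG. Genes with at least 1 FPKM in 2 libraries entered a two-sided limma fit (version 3.58.1 in R 4.3.3) of log2(FPKM + 1), fitting antibody and a block for experiment. Each gene then had 1 residual degree of freedom, and the prior from all genes added 14.6. The labels number the experiments across antibodies, which is where the pairing comes from; across genes, deviations from the group means correlated at 0.002 between libraries of 1 experiment. The limma code was tested on simulated data. Alternatives were other scalings, filters (none, 5 FPKM) and pseudocount (0.1), a fit without the block, limma-voom on the recovered reads, and each library left out in turn. A loess correction (span 0.5) for length and level of genes was chosen after seeing the data.

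The members and lists were chosen with earlier results of these data known. Named by rule were the 10 members, the called gene with the largest change in each direction in each class of other pathway genes, untested genes, and the 3 nearest patterns, of which 1 is not reported here. Adam10, Aph1c and Rbpsuh-rs3 were named after their values were seen. Positions are from RefSeq on GRCm38.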

Additional observations from a re-analysis of the deposited data

How the results depend on the processing

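Library scaling moved most results, and the cause was not tested. Read totals called 2759 genes higher and 6670 lower, Notch members 1 and 6, and other pathway genes 6 and 22. Log2 fold changes there were -0.56 for Notch1, -0.49 for Notch2, -0.54 for Notch3, -0.47 for Dll1, -0.61 for Dll3, -0.17 for Jag1, -0.24 for Hes1, -0.43 for Hes5 and 0.075 for Hey1. Trimmed means called 4028 genes higher and 4024 lower, members 1 and 2, and 13 other pathway genes lower, with -0.34 for Notch1, -0.25 for Dll1, -0.40 for Dll3, -0.031 for Hes1, -0.20 for Hes5 and 0.30 for Hey1. Median centring called 3429 genes, 1 member and 10 other pathway genes lower, with -0.18 for Dll1, -0.33 for Dll3 and -0.12 for Hes5. Without a filter 3915 genes were higher and 875 lower, of them 1 other pathway gene; at 5 FPKM 937 were lower. Limma-voom called 5 other pathway genes lower and gave 0.32 for Jag1. Without the replicate block Jag1 passed at 0.29 (limma adjusted p = 0.0475), and no other member's call changed. Removing the trend on length and level, chosen after seeing the data, gave -0.72 for Notch1, -0.42 for Notch2, -0.48 for Notch3, -0.39 for Dll1, -0.40 for Dll3, -0.12 for Jag1, 0.60 for Rbpj, -0.16 for Hes5 and 0.23 for Hey1, with no test.

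Leaving out each library gave 3977 to 6534 genes higher and 867 to 2497 lower, the lowest of each without IgG replicate 2, with 942 lower without IgG replicate 1. Members called higher were 1 (without IgG replicate 2) to 4 (without Cpeb4 replicate 2) and lower 0 to 1 (without Cpeb4 replicate 1), and other pathway genes 13 to 25 and 1 (without either IgG library) to 9 (without Cpeb4 replicate 1). Log2 fold changes were -0.22 to 0.077 for Notch1, -0.34 to 0.23 for Notch2, -0.33 to 0.14 for Notch3, -0.094 to 0.11 for Dll1, -0.29 to -0.0040 for Dll3, 0.26 to 0.31 for Jag1, 0.79 to 0.94 for Rbpj, 0.17 to 0.26 for Hes1, -0.12 to 0.26 for Hes5 and 0.54 to 0.59 for Hey1. These fits had no block and assumed that the lone library varied like the others. Their spread came from the 1 pair left whole, so calls made without a Cpeb4 library and without an IgG library are not comparable. With 2 libraries a group, an exact permutation test cannot pass 0.05, and intervals of about 0.3 on either side bound what the members could show.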
